A study of Homo sapiens with 6 samples.

Results

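The distal end of the long arm of chromosome 7 was examined gene by gene in azacitidine-resistant K562 cells against azacitidine-sensitive K562 cells. The stretch was defined as every protein-coding gene whose start lies between positions 128790000 and 158957000 of chromosome 7 (GRCh38, gene starts from GENCODE 29), a length of 30.2 Mb. It held 221 genes out of 61487 rows in the count table and 19854 protein-coding rows with a position. Of these 221 genes, 136 had enough reads to be tested and 85 did not. The members were selected on the fold changes of these same libraries, resistant over sensitive, so those values are given as a description, with no test of the stretch itself.

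K562 is a line from a human chronic myeloid leukaemia with erythroid features, known for a karyotype with extra and rearranged chromosomes. Resistant cells were 3 libraries from K562 cells that had been kept for over 4 months in rising concentrations of azacitidine, a cytidine analogue that cells incorporate into nucleic acids, where it traps the enzymes that methylate DNA. Sensitive cells were 3 libraries from the K562 cells that had not been selected. All 6 libraries were made from total RNA of the cultured line, no treatment before harvest is listed, and the labels do not say whether the resistant cells are 1 clone. Whether the replicates, labelled biological, came from cultures kept apart is not stated, so errors and p-values reflect only how these 6 libraries vary.

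Distal 7q is a gene-rich region whose loss is a recurrent finding in myeloid neoplasms. It carries EZH2, the methyltransferase of Polycomb repressive complex 2, KMT2C, a histone H3 lysine 4 methyltransferase, CUL1, the scaffold of SCF ubiquitin ligases, and BRAF, a kinase of the ERK pathway. It also holds a cluster of zinc finger genes, the T cell receptor beta locus, and families of taste receptor, olfactory receptor and trypsin genes that most blood cells do not express. DNA copy number and DNA methylation were not measured in these libraries.

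Total counts ranged from 33007642 to 37991708 in resistant and from 34924828 to 43006918 in sensitive libraries. Levels are given as CPM, the scaled counts-per-million unit. With 3 counts of the total as the floor, a gene without counts could still reach 0.0698 to 0.0909 CPM, by counting error only. The summed level of 9 fixed K562 markers, among them GATA1, TAL1 and the fetal globin genes, was 939 to 1579 CPM in resistant and 788 to 1723 CPM in sensitive libraries, with HBE1 at or below 0.277 CPM in every library. The 4 T cell markers summed to 1.68 to 2.49 CPM in resistant and 22.4 to 114 CPM in sensitive libraries, mostly from CD3D, with CD2 at or below 0.0601 CPM. The 3 B cell markers summed to 8.24 to 9.30 and 5.56 to 7.10 CPM, with no MS4A1 counts. The 3 fibroblast markers summed to 4.69 to 7.27 and 1.03 to 3.04 CPM, but went opposite ways. COL1A2 averaged 5.51 CPM in resistant and 0.324 CPM in sensitive libraries, COL1A1 0.455 and 1.10 CPM, and COL3A1 0.0702 and 0.811 CPM. The 3 epithelial markers summed to 271 to 370 and 358 to 464 CPM. Of these, KRT19 averaged 11.3 CPM in resistant and 52.7 CPM in sensitive libraries and was called lower, while EPCAM and KRT8 were not called. The part of all these markers in the values below was not tested. In bulk RNA, fewer cells of a type and less RNA per cell cannot be told apart.

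Genes of distal 7q lay above the middle of the genome in resistant cells. Each log2 fold change, resistant over sensitive, was read relative to the median of the 13539 tested protein-coding genes, which was −0.03. The 136 tested members had a median of 0.36 above that point, a ratio of 1.29, with the middle 50% of genes between −0.07 and 0.76. Of these, 97 (71.3%) lay above the genome-wide median. Relative to the sensitive mean, the member median, less that of all coding genes, was 0.39, 0.37 and 0.26 in resistant replicates 1, 2 and 3, on the scale log2(CPM + 0.5), and 0.02, 0.03 and −0.05 in sensitive replicates 1, 2 and 3. The resistant values lay above the sensitive ones, but the stretch was chosen from this comparison and the sensitive mean set the reference. Nothing is read from that gap. Members took between 0.809% and 0.849% of all counts in resistant libraries and between 0.508% and 0.569% in sensitive libraries.

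Gene by gene, 44 members were called higher and 3 lower at an edgeR adjusted p below 0.05, and 89 were not called. Of all genes tested, 9.83% were called higher and 13.1% lower, and of all coding genes 11.6% and 15.3%. By at least 2-fold, 20 members were called higher and 1 lower, against 6.11% and 8.97% of all genes and 6.23% and 9.44% of coding genes. All 3 resistant libraries lay above all 3 sensitive libraries for 59 members and below them for 13, against 18.7% and 21.4% of all genes and 20.6% and 24.1% of coding genes. Since the choice of the stretch used this comparison, nothing is read from these counts. Only 19 of the 44 higher calls and 2 of the 3 lower calls were made in every fit that left out 1 library. Without resistant replicate 2, 23 members were called higher, without sensitive replicate 1, 21, and without sensitive replicate 2, 24. Without resistant replicate 3, 5 were called lower, and without sensitive replicate 3, 8. The shares of all genes called in those fits are not given here, so these counts are not read as a trait of the members. Of the tested members, 124 reached the count limit of the filter in all 6 libraries and 4 reached it in 1 group alone.

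**Figure D1:**
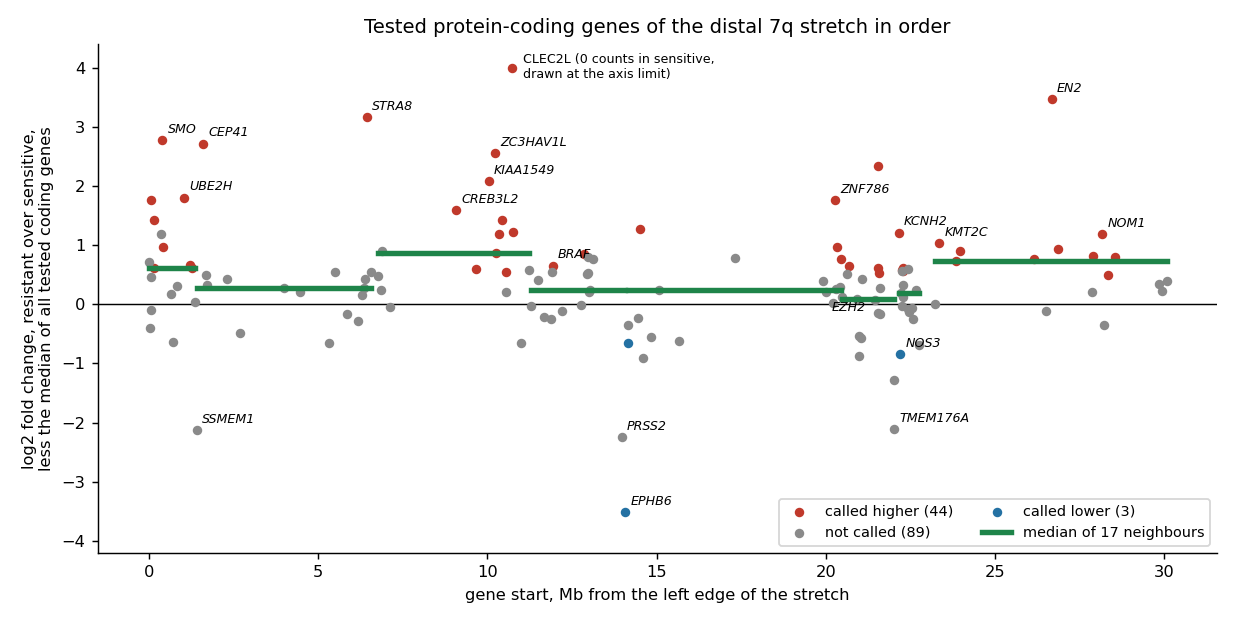
Log2 fold change (resistant over sensitive, less the coding median) of the 136 tested members against the distance of their start from the left edge in Mb, coloured by call, with green bars for the median of 17 neighbours. The bars lie above 0 along the whole stretch and are highest from NUP205 to PARP12 (0.86) and from GALNT11 to DYNC2I1 (0.73).

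The label of a distal segment was checked against the rest of the chromosome. The 507 tested coding genes of chromosome 7 outside the stretch had a median of 0.35, against 0.36 for the 136 members, and 372 (73.4%) of them lay above the genome-wide median. The relative median of those 507 genes was 0.35, 0.32 and 0.32 in resistant replicates 1, 2 and 3. In steps of 10 Mb back from the left edge, the medians lay between −0.08 and 0.47, and 11 of 13 were above 0. At an average log2 CPM of at least 3, with the same reference, the median was 0.48 over 91 members and 0.31 over 330 genes of the rest. Called higher were 32.4% of tested members and 23.7% of the 507 genes, against 11.6% of all coding genes. Called lower were 2.21% and 7.5%, against 15.3%. The data therefore go against a rise limited to the distal segment, and no test of the difference between both parts was made. Of the other chromosomes, chromosome 15 had a median of 0.34 and chromosome 20 of 0.21, and all remaining ones lay between −0.17 (chromosome 2) and 0.11 (chromosome 21).

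**Figure D2:**
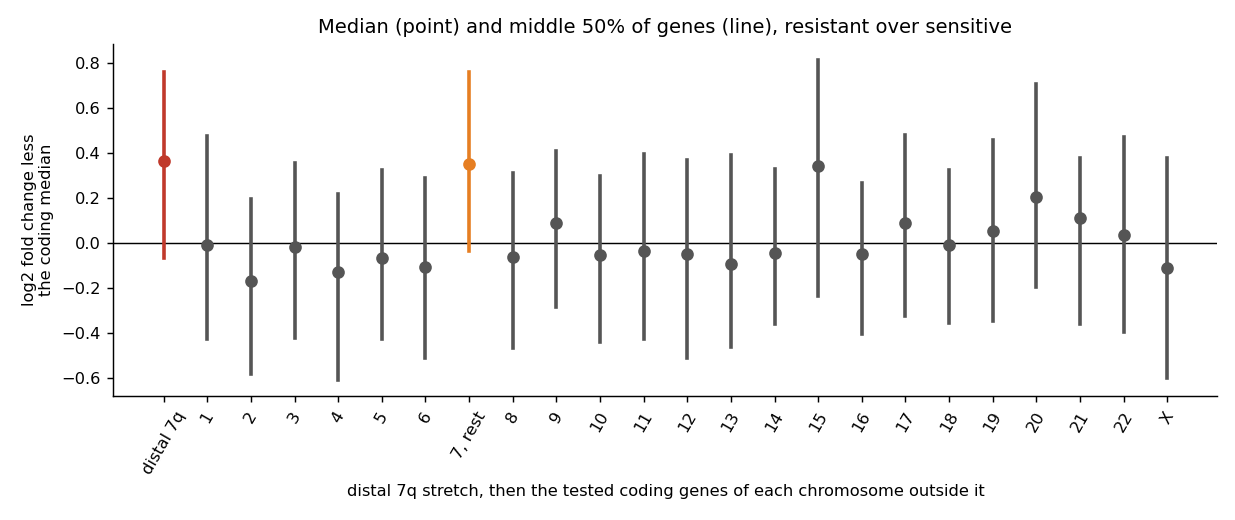
Median (point) and middle 50% (line) of the log2 fold change less the coding median, for the distal 7q members and for the tested coding genes of each chromosome outside the stretch. Distal 7q (0.36) and the rest of chromosome 7 (0.35) sit together, level with chromosome 15 (0.34).

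**Figure D3:**
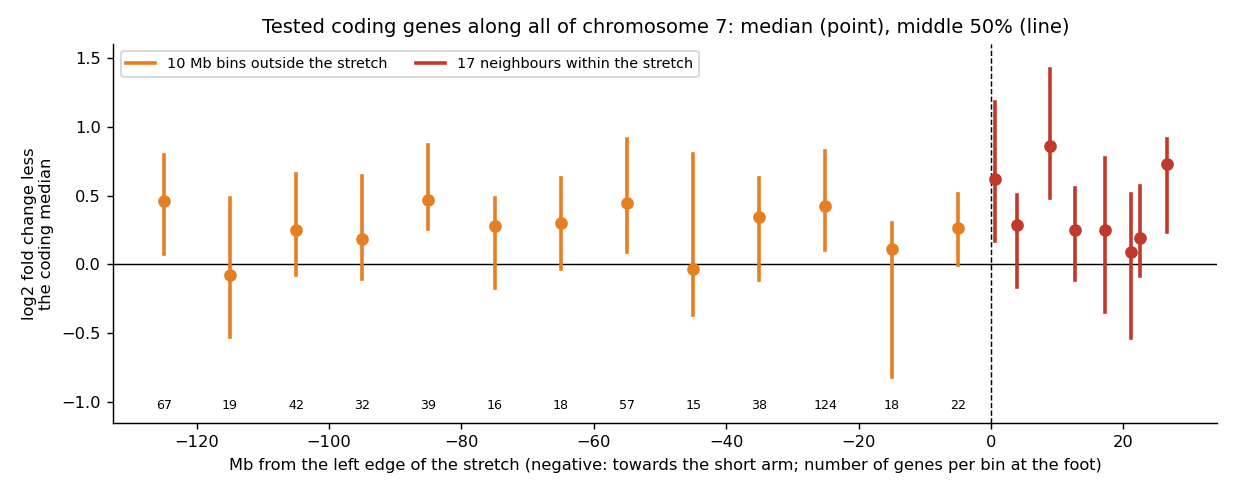
Median (point) and middle 50% (line) of the log2 fold change less the coding median along chromosome 7, in 10 Mb bins left of the stretch (dashed line at its left edge) and in groups of 17 neighbours within it. Medians of both kinds are mostly above 0. The first group inside the edge is at 0.62 and the last bin before it at 0.26, with overlapping middle 50% ranges, and bins farther out reach 0.47.

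Single genes around the left edge were mixed. Just inside the left edge, CCDC136 was at 0.71, FLNC, which encodes a muscle filamin, at −0.40 and KCP at 0.46 relative to the coding median. Just outside it, GARIN1A was at 0.32, CALU, a calcium-binding protein gene of the secretory pathway, at −0.18 and OPN1SW, the blue cone opsin gene, at 0.52. GARIN1A and OPN1SW were sparse, averaging 0.263 and 0.588 CPM in resistant and 0.214 and 0.414 CPM in sensitive libraries. With SE of 0.58 and 0.63, their values cannot place the left edge. At the right edge, the condensin II subunit gene NCAPG2 was at 0.34, ESYT2, an endoplasmic reticulum tether gene, at 0.23 and DYNC2I1, of the ciliary dynein, at 0.39. None of the genes named at either edge was called. No coding gene beyond the right edge was tested, so that edge could not be compared with an outside.

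The shift was uneven along the stretch. In 8 groups of 17 neighbours, the median was 0.62 from CCDC136 to TMEM209, 0.28 from SSMEM1 to CNOT4 and 0.86 from NUP205 to PARP12. It was 0.25 from KDM7A to EPHB6, 0.25 from LLCFC1 to ZNF212, 0.09 from ZNF783 to TMEM176A, 0.20 from KCNH2 to PRKAG2 and 0.73 from GALNT11 to DYNC2I1. The number of members called higher per group was 8, 2, 10, 2, 4, 4, 4 and 10 in that order, and the 3 called lower were EPHB6, KEL and NOS3. All 8 groups had a median above 0, with the middle 50% reaching below 0 in 5 of them.

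The spread of the fold changes was narrower at higher levels, among members as among all coding genes. Over 50 members above 40 CPM, the median was 0.49 with an interquartile range of 0.47. Over 52 members between 5 and 40 CPM it was 0.32 with a range of 0.77, and over 34 members below 5 CPM it was 0.21 with a range of 1.49. For all coding genes in the same level classes the medians were −0.02, −0.01 and 0.07 and the interquartile ranges 0.61, 0.77 and 1.56. Per kilobase of exon, members spanned 0.0295 to 74.0 CPM with a median of 4.11, led by MTPN, which encodes a regulator of actin capping.

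The members with the highest fold changes ranged from sparse genes to abundant ones, and in each of them every resistant library lay above every sensitive library. SMO, which encodes the Hedgehog signal transducer Smoothened, measured 9.74, 9.81 and 10.8 CPM in resistant and 1.34, 2.28 and 0.884 CPM in sensitive libraries, a log2 fold change of 2.75 ± 0.33 (SE). CEP41, a centrosomal protein gene of cilia, measured 14.1, 15.1 and 14.8 CPM in resistant and 1.98, 1.56 and 3.27 CPM in sensitive libraries (2.69 ± 0.28). In both genes the groups stood far apart.

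STRA8, a germ cell gene induced by retinoic acid at the entry into meiosis, measured 4.32, 3.95 and 2.49 CPM in resistant and 0.562, 0.631 and 0.0268 CPM in sensitive libraries (log2 fold change 3.13 ± 0.68). The groups did not overlap, and sensitive replicate 3 had a count of 1. STRA8 overlaps the pseudogene SLC23A4P on the opposite strand, which was at 0.443, 0.578 and 0.446 CPM in resistant and 0, 0.0601 and 0.0536 CPM in sensitive libraries, and the strand setting of the counting is not given in the sources used here. CLEC2L, a C-type lectin-like gene, had 52, 41 and 42 counts in resistant and none in sensitive libraries. It was at least 44.0-fold higher, against a floor of 3 counts over the sensitive group.

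UBE2H, an E2 ubiquitin-conjugating enzyme gene that erythroid cells express strongly, measured 149, 152 and 160 CPM in resistant and 51.6, 47.6 and 35.2 CPM in sensitive libraries, a log2 fold change of 1.78 ± 0.18. The lowest resistant library was far above the highest sensitive one. CREB3L2, a membrane-bound transcription factor gene, measured 210, 161 and 85.5 CPM in resistant and 48.9, 52.5 and 52.4 CPM in sensitive libraries (1.57 ± 0.28). KIAA1549 measured 22.7, 15.6 and 11.2 CPM in resistant and 3.94, 4.51 and 3.48 CPM in sensitive libraries (2.05 ± 0.27). In both, resistant replicate 3 was the lowest of its group and still above every sensitive library. ZC3HAV1L, a paralogue of the antiviral gene ZC3HAV1 beside it, and the zinc finger gene ZNF786 had log2 fold changes of 2.53 ± 0.33 and 1.74 ± 0.19. Apart from CLEC2L, which passed the filter through the resistant libraries alone, the 8 genes were called in every fit that left out 1 library.

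Resistant replicate 3 stood below the other resistant libraries in long genes, and among members also in genes under 30 kb. Among the 30 tested members over 100 kb, its level less the mean of resistant replicates 1 and 2 had a median of −0.37 (log2, relative to all coding genes), and −0.19 over all 2505 coding genes of that length. Among the 62 members under 30 kb it was −0.11, and 0.08 over all 6582 coding genes of that length. In sensitive replicate 3, the same value was −0.01 over the long members and −0.10 over those under 30 kb. The fold changes of the long members had a median of 0.46, against 0.25 for those under 30 kb. Over all coding genes of the same classes the medians were 0.05 and −0.03. The part of gene span in these values was not tested. The offsets for transcript length and GC content, under which the member median was 0.37, do not cover gene span.

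**Figure D4:**
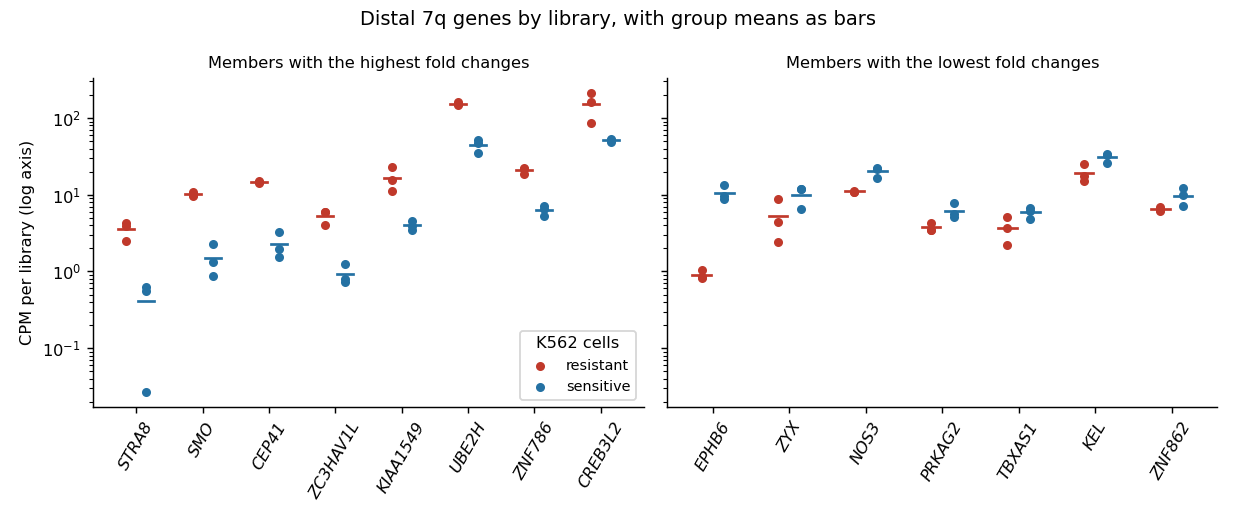
CPM in each library (log axis) of the 8 members with the highest and 7 of the 8 with the lowest log2 fold changes among those whose mean count reached 100 in either group, resistant left of sensitive, with bars for group means. The groups are apart for all 8 on the left, and on the right EPHB6 (0.909 against 10.6 CPM) has the widest gap.

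A few members went the other way. EPHB6, a kinase-dead ephrin receptor gene, measured 0.858, 1.06 and 0.813 CPM in resistant and 13.4, 9.56 and 8.73 CPM in sensitive libraries, a log2 fold change of −3.53 ± 0.28 (edgeR adjusted p = 2.00e-05). Of the tested members on either side, the trypsinogen gene PRSS2 was at −2.25 relative to the coding median and LLCFC1 at −0.34. PRSS2, added here after its values were seen, measured 0.332, 0.0503 and 0.210 CPM in resistant and 1.83, 0.661 and 0.375 CPM in sensitive libraries, was not called, and has a close paralogue in PRSS1. NOS3, endothelial nitric oxide synthase, measured 11.0, 11.3 and 10.9 CPM in resistant and 21.7, 22.5 and 16.3 CPM in sensitive libraries (−0.86 ± 0.18). It overlaps ATG9B on the opposite strand. KEL, the Kell blood group gene, measured 17.6, 15.1 and 25.5 CPM in resistant and 32.7, 26.2 and 34.1 CPM in sensitive libraries (−0.68 ± 0.22, edgeR adjusted p = 0.0480). That call was lost without resistant replicate 1 (0.130) or 2 (0.217) and without sensitive replicate 1 (0.139), 2 (0.0602) or 3 (0.130). ZYX, PRKAG2, TBXAS1 and ZNF862 had log2 fold changes between −0.94 and −0.60 that were not called.

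The bases just before the RefSeq start of 4 of these genes (RefSeq, GRCh38.p14, plus strand) are shown because they are the members at the extremes and differ in CpG content, the dinucleotide that DNA methyltransferases act on. CLEC2L lies at chr7:139523435-139523684, SMO at chr7:129188383-129188632, STRA8 at chr7:135231665-135231914 and EPHB6 at chr7:142862506-142862755. Each sequence is 250 bases, 5′ to 3′, with every CG in capitals.
CLEC2L: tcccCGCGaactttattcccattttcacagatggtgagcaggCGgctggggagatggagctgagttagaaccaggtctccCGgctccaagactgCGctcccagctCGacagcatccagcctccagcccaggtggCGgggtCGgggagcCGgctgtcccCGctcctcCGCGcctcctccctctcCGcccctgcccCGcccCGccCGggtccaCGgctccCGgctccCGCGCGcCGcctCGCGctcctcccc
SMO: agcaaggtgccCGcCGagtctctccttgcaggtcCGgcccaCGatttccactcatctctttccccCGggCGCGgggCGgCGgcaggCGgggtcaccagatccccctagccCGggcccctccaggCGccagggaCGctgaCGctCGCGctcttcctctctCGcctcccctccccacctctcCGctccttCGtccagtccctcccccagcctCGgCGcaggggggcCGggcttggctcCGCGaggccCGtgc
STRA8: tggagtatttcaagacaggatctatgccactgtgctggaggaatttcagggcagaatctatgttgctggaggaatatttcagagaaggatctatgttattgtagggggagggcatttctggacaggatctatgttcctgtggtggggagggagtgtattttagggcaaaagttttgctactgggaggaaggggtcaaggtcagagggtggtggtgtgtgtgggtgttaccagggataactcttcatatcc
EPHB6: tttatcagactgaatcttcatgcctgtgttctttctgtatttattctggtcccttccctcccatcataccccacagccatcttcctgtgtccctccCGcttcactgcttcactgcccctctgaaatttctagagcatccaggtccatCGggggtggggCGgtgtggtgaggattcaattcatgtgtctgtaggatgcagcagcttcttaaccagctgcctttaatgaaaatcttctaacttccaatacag

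CLEC2L had 24 and SMO 25 CG in this window, and 38.6% and 35.2% of the promoters of tested coding genes had at least as many. EPHB6 had 3 and STRA8 none, and the RefSeq start of EPHB6 lies inside the GENCODE gene. A promoter of this kind was found for 117 of the 136 tested members, with a median of 21 CG, and for 10920 tested coding genes, with a median of 20. The 34 promoters of members called higher had a median of 24.5, the 80 of members not called 20, and the 75 of members not tested 4. These counts describe the sequence and say nothing of its methylation.

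**Figure D5:**
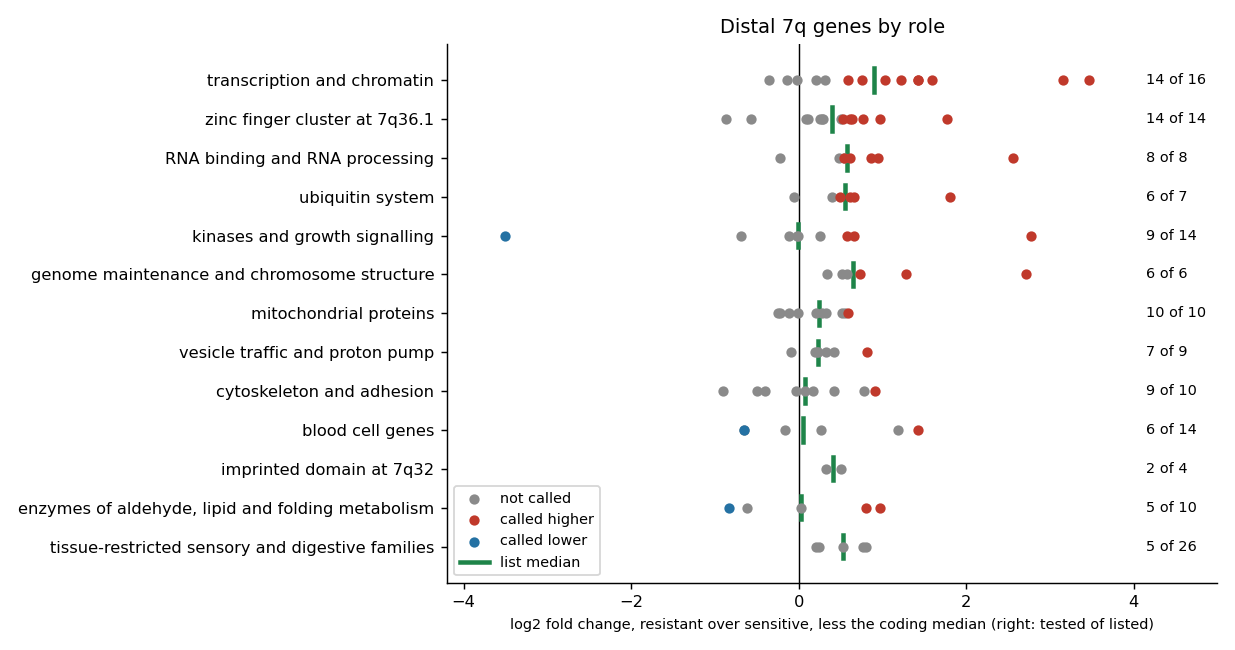
Log2 fold change (resistant over sensitive, less the coding median) of the tested members in 13 role lists, coloured by call, with a green bar at each list's median and the number tested of the number listed at right. Transcription and chromatin genes have the highest list median (0.90), and kinases and growth signalling genes the lowest (−0.01).

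The role lists were chosen with earlier results known, and none was tested as a list. Their counts stand beside 11.6% of all coding genes called higher and 15.3% lower, and beside 32.4% and 2.21% of the tested members. Genes of transcription and chromatin had the highest list median. Of 16 listed, 14 were tested, 9 were called higher and none lower, with a median of 0.90 relative to all coding genes. KMT2C measured 478, 370 and 249 CPM in resistant and 192, 184 and 169 CPM in sensitive libraries, a log2 fold change of 1.01 ± 0.23 whose call was lost without resistant replicate 2 or sensitive replicate 2 (edgeR adjusted p = 0.0520 in both). TRIM24, a bromodomain cofactor of nuclear receptors, averaged 152 ± 5.64 CPM in resistant and 103 ± 9.34 CPM in sensitive cells (SD, n = 3 each). Its call was lost without resistant replicate 2 (0.115), sensitive replicate 1 (0.108) or sensitive replicate 2 (0.136). EZH2 was not called: it measured 159, 150 and 164 CPM in resistant and 125, 117 and 177 CPM in sensitive libraries (0.17 ± 0.19), and the groups overlapped. NRF1, a regulator of mitochondrial biogenesis, was not called either (0.29 ± 0.19).

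All 14 genes listed for the zinc finger cluster were tested, with a median of 0.40, and 6 were called higher and none lower. ZNF398, outside the rule for named genes, measured 43.7, 44.0 and 45.0 CPM in resistant and 24.0, 22.7 and 22.5 CPM in sensitive libraries. ZBED10P averaged 87.1 ± 13.3 CPM in resistant and 58.2 ± 8.75 CPM in sensitive cells. Its call was lost without resistant replicate 2 or 3 or sensitive replicate 1 or 2. REPIN1, a replication initiator gene, averaged 104 ± 7.66 CPM in resistant and 73.8 ± 4.88 CPM in sensitive cells, a call lost without resistant replicate 2 (edgeR adjusted p = 0.178), sensitive replicate 1 (0.146) or sensitive replicate 2 (0.159). ZNF282 had 39.9 ± 3.62 CPM in resistant and 33.3 ± 2.03 CPM in sensitive cells and was not called.

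All 8 genes listed for RNA binding and processing were tested and 5 called higher, with a median of 0.58. Of these, 7 (87.5%) lay above the coding median, against 71.3% of all tested members and 50.0% of coding genes. ZC3HAV1, the zinc finger antiviral protein, measured 186, 182 and 178 CPM in resistant and 106, 114 and 86.3 CPM in sensitive libraries (log2 fold change 0.83 ± 0.16). TNPO3, the import receptor of splicing factors, averaged 269 ± 35.5 CPM in resistant and 179 ± 6.22 CPM in sensitive cells, a call lost without resistant replicate 2 (edgeR adjusted p = 0.114) or sensitive replicate 1 (0.115), 2 (0.117) or 3 (0.0797). NUP205, a nuclear pore scaffold gene, was not called, at 617 ± 98.1 CPM in resistant and 450 ± 114 CPM in sensitive cells.

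In the ubiquitin system, 6 of 7 listed genes were tested and 4 called higher, UBE2H far above the rest, with a median of 0.56. KLHDC10, a substrate receptor, averaged 153 ± 5.12 CPM in resistant and 102 ± 9.19 CPM in sensitive cells, and the E3 ligase gene UBE3C 160 ± 7.69 and 115 ± 6.23 CPM. The call of UBE3C was lost in every fit without 1 library (edgeR adjusted p from 0.0507 to 0.195), and that of KLHDC10 in 4 of 6 (0.0518 to 0.105), namely without resistant replicate 2 or any 1 sensitive library. CUL1 was not called, at 101, 109 and 120 CPM in resistant and 66.4, 69.8 and 119 CPM in sensitive libraries, where sensitive replicate 3 stood with the resistant ones.

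Kinase and growth signalling genes had no common direction. Of 14 listed, 9 were tested, 3 were called higher and 1 lower, with a median of −0.01. BRAF measured 112, 99.1 and 65.5 CPM in resistant and 59.1, 60.0 and 59.6 CPM in sensitive libraries, a log2 fold change of 0.63 ± 0.20 (edgeR adjusted p = 0.0439). Its groups did not overlap, but resistant replicate 3 lay close to the sensitive libraries, and the call was lost without resistant replicate 1 (0.141) or 2 (0.162) or sensitive replicate 1 (0.144), 2 (0.133) or 3 (0.0872). RHEB, the activator of mTORC1, averaged 87.1 ± 20.3 CPM in resistant and 74.6 ± 3.24 CPM in sensitive cells, and was not called. INSIG1, a sterol-responsive gene of the endoplasmic reticulum, measured 73.2, 94.0 and 103 CPM in resistant and 113, 99.5 and 84.8 CPM in sensitive libraries, which overlapped. SHH, the Hedgehog ligand, had 2 counts in resistant and 0 in sensitive libraries, both under the floor.

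All 6 genes listed for genome maintenance and chromosome structure were tested, with a median of 0.65, and 3 were called higher. The called genes were the centrosomal gene CEP41 (2.72 relative to the coding median), the caspase gene CASP2 (1.28) and XRCC2. XRCC2, a gene of homologous recombination repair, measured 116, 120 and 154 CPM in resistant and 81.9, 81.3 and 75.8 CPM in sensitive libraries (0.70 ± 0.16), a call lost without sensitive replicate 1 (edgeR adjusted p = 0.0592) or 2 (0.0590). SSBP1, the mitochondrial single-stranded DNA binding protein gene, and NCAPG2 were not called, with 0.49 ± 0.26 and 0.31 ± 0.14.

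Mitochondrial genes stayed nearer the genome's middle. All 10 listed were tested, 1 was called higher and none lower, with a median of 0.25. CHCHD3, of the cristae organising complex, averaged 122 ± 31.8 CPM in resistant and 103 ± 23.2 CPM in sensitive cells, and the lipid kinase gene AGK 48.4 ± 5.54 and 49.6 ± 5.51 CPM. Of 9 genes listed for vesicle traffic and the proton pump, 7 were tested and 1, LMBR1, called higher, with a median of 0.23. LMBR1, the gene whose intron holds the limb enhancer of SHH, measured 142, 135 and 113 CPM in resistant and 71.1, 73.4 and 81.5 CPM in sensitive libraries. EXOC4, an exocyst subunit gene, was at 0.19 ± 0.14 and ESYT2 at 0.21 ± 0.16, neither called.

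Cytoskeleton and adhesion genes were spread on both sides of the coding median. Of 10 listed, 9 were tested and 1 called higher, with a median of 0.08. The most abundant was MTPN, with 235, 260 and 323 CPM in resistant and 300, 250 and 306 CPM in sensitive libraries, where the groups overlapped. FLNC averaged 134 ± 34.5 CPM in resistant and 180 ± 72.2 CPM in sensitive cells, and MKLN1, which encodes muskelin, 165 ± 23.2 and 125 ± 8.15 CPM. Neither was called.

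Blood cell genes had a median of 0.05. Of 14 listed, 6 were tested, with IRF5, an interferon regulatory factor gene, called higher and KEL lower. The IRF5 call was lost in 5 of 6 fits that left out 1 library, all but the one without resistant replicate 3. BPGM, the red cell bisphosphoglycerate mutase gene, averaged 16.9 ± 4.02 CPM in resistant and 19.3 ± 2.90 CPM in sensitive cells and was not called. TMEM140 averaged 14.9 ± 0.705 and 12.6 ± 2.57 CPM and was not called. None of the 7 listed GIMAP genes, lymphoid GTPases, had enough reads to be tested. The T cell receptor constant gene TRBC1, a row of the stretch outside the coding set, measured 0.0554, 0.126 and 0.262 CPM in resistant and 1.12, 1.29 and 1.31 CPM in sensitive libraries.

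At the imprinted domain, MEST, expressed from the paternal copy in most tissues, averaged 38.5 ± 5.62 CPM in resistant and 27.7 ± 4.70 CPM in sensitive cells (SD, n = 3 each). The groups were just apart, and the log2 fold change of 0.48 ± 0.18 was not called. Its neighbour COPG2, a coatomer subunit gene that overlaps it on the other strand, was at 0.30 ± 0.17. The remaining 2 listed genes of the domain, KLF14 and CPA4, were not tested. Among listed enzymes and chaperones, 5 of 10 were tested. DNAJB6, a co-chaperone of HSP70, averaged 94.3 ± 12.7 CPM in resistant and 54.9 ± 4.54 CPM in sensitive cells and was called higher in every fit without 1 library. PDIA4, a protein disulfide isomerase gene, averaged 163 ± 11.5 and 163 ± 16.3 CPM.

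Of 26 listed genes of sensory and digestive families, 21 were not tested. The bitter taste receptor genes TAS2R3, TAS2R4 and TAS2R5 averaged 2.35 ± 1.22, 7.28 ± 3.73 and 2.08 ± 0.491 CPM in resistant and 1.37 ± 0.495, 5.16 ± 1.95 and 1.83 ± 0.848 CPM in sensitive cells, none of them called. TAS2R3 and TAS2R4 overlap SSBP1 on the same strand, which averaged 143 CPM in resistant and 101 CPM in sensitive cells. Their counts therefore cannot be assigned with certainty. Over the whole stretch, 26 members had no counts in any library, 32 more of those not tested had at most 10 counts in all, and the highest total of a member not tested was 58.

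Outside the rule for named genes and chosen after their values were seen, 4 members called higher in every fit without 1 library belonged to the more abundant ones. KCNH2, the hERG potassium channel gene, measured 384, 440 and 466 CPM in resistant and 202, 163 and 203 CPM in sensitive libraries (1.18 ± 0.18). UBN2, of the HIRA histone chaperone complex, measured 149, 134 and 77.5 CPM in resistant and 51.2, 49.1 and 37.0 CPM in sensitive libraries (1.39 ± 0.25). CASP2, an initiator caspase gene, averaged 45.9 ± 12.6 CPM in resistant and 19.3 ± 1.44 CPM in sensitive cells, and NOM1, a nucleolar protein gene, 75.7 ± 10.9 and 33.9 ± 0.833 CPM. In all 4 the groups did not overlap.

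The stretch also held 467 rows that are not protein-coding, of which 80 were tested. Their median was 0.45 relative to the coding median, against 0.19 for the 6608 non-coding genes tested in the whole table. Of the 80, 3 (3.75%) were called higher and 7 (8.75%) lower, against 6.63% and 8.90% of all non-coding genes tested. The most abundant were the pseudogene ZNF767P, at 28.0 ± 4.02 CPM in resistant and 21.4 ± 1.81 CPM in sensitive cells, and RNF32-DT, a lincRNA at 24.9, 29.4 and 32.9 CPM in resistant and 13.7, 16.2 and 17.7 CPM in sensitive libraries. PAXIP1-DT, next in level, averaged 18.5 ± 4.05 CPM in resistant and 21.4 ± 1.88 CPM in sensitive cells and was not called. Of the tested coding members, 45 overlap a gene on the same strand and 74 one on the opposite strand, some of them both, and 45 overlap none. A share of these counts therefore cannot be assigned to a gene or a strand with certainty.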

How the data were processed

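RNA of 3 resistant and 3 sensitive K562 samples was sequenced in pairs as stranded total RNA after ribosomal RNA removal, per the labels' protocols. The submitters' processing notes name GRCh38 as build and list Subread 2.0.3, featureCounts, HISAT2 2.2.1 and Trimmomatic 0.39. The sources used here give neither annotation release nor strand setting. The authors deposited unnormalised counts for each Ensembl gene, with 58312 of 61487 IDs placed by GENCODE 29.

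Counts were filtered with filterByExpr (20891 genes left), TMM-scaled and compared by edgeR 4.0.16 (quasi-likelihood, robust option, R 4.3.3), two-sided, with Benjamini-Hochberg adjustment over all tested genes. The steps were tested on simulated data. CPM use TMM-scaled totals of the filtered genes. The SE is the log2 fold change divided by the square root of the F statistic. ZBED6CL was matched under its name ZBED10P.

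The members, role lists and rules were chosen with earlier results of these data known. Named genes are the 8 highest and 8 lowest fold changes whose mean count reached 100 in either group, 3 tested genes on each side of an edge, up to 3 most abundant members per list, members at 0 counts in 1 group and at least 100 in the other, NRF1, BRAF, EZH2, CUL1, KMT2C, MEST and SHH, and the 3 most abundant non-coding rows; 1 gene named by this rule is not reported here. Alternatives were other scaling factors, filters, a replicate block, DESeq2 1.42.0, each library or both numbered 3 left out, length and GC offsets (smooth fit, span 0.3), gene midpoints and a minimum level.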

Additional observations from a re-analysis of the deposited data

How the results depend on the processing

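The median of the distal 7q members relative to all coding genes kept its sign under every alternative run. It was 0.29 with no filter on low counts, which lets 195 members in, and 0.49 over genes with an average log2 CPM of at least 3, where 81.3% of members lay above the median. At that minimum level, the reference was the median of the coding genes that reached it. In fits that left out 1 library the member median ranged from 0.34 to 0.40. The median of the rest of chromosome 7 was 0.38 with length and GC offsets and 0.33 at that minimum level, and 0.34 to 0.38 without 1 library. Its alternatives were added after seeing the data. Members called higher numbered 21 to 47 without 1 library and 62 without both libraries numbered 3. Members called lower numbered 9 with no filter, 5 with the replicate block, 6 with DESeq2, 14 without both libraries numbered 3, and 2 to 8 without 1 library. The shares of all genes called in these fits are not given here, so the moves are not read as a trait of the members. The cause of these moves was not tested.

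Library totals alone moved the coding median from −0.03 to 0.15. Direction turned, never with a call, for INSIG1 (0.014 with library totals), RHEB (−0.0046 without resistant replicate 3), TAS2R5 (−0.17 without sensitive replicate 3) and 3 genes near 0. MTPN was at 0.011 with upper quartile factors, 0.10 with library totals, 0.017 with offsets, and −0.23 to 0.036 without 1 library. AGK was at 0.044 with upper quartile factors, 0.14 with library totals, 0.0019 with at least 50 counts, 0.0070 with offsets, and −0.14 to 0.055 without 1 library. PDIA4 was at 0.0066 with DESeq2 size factors, 0.072 with upper quartile factors, 0.17 with library totals, 0.032 with at least 50 counts, 0.0067 with DESeq2, 0.050 with offsets, and −0.082 to 0.057 without 1 library. Of the other values of the 56 named members, 732 kept direction and call, 44 lost a call and 42 gained one.

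The replicate numbers are not shown to pair the libraries. Deviations of same-numbered libraries correlated at 0.20, 0.085 and 0.30 across genes, and 4 of 6 libraries correlated best with their own number. With the replicate block 53 members were called higher, again without the share of all genes called in that fit. Members with few counts, 34 below 5 CPM, limit what single genes can show.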
